A study of Rattus norvegicus with 11 samples.

Results

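Integrins are cell-surface receptors built of 1 alpha and 1 beta chain, and laminins are basement membrane proteins built of 3 chains (alpha, beta and gamma) that many integrins bind. Their genes were followed in dorsal root ganglia, the clusters beside the spinal cord where sensory neurons and their glia lie. A gene was taken when its symbol began with Itga or Itgb, or was Lama, Lamb or Lamc followed by a digit. The rule found 29 of the 16811 genes in the table: 18 integrin subunit genes, 7 laminin chain genes and 4 genes that share the prefix but encode no integrin subunit. It used no measured value. Testing asked for a scaled count of 10 or more in 3 or more libraries, which 27 of the 29 met. The laminin gene Lamb2 was listed at 0 in every library and Itgb1bp2 stayed under that minimum.

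The ganglia came from Sprague-Dawley rats and gave 11 RNA-seq libraries in 3 groups. The SNL plus UNC0638 group (n = 3) had a spinal nerve ligation, a nerve injury that leads to lasting pain in rats, and was then given UNC0638, an inhibitor of the histone methyltransferases G9a and GLP. The SNL group (n = 4) had the ligation alone, and the Sham group (n = 4) is labelled as control. Per the labels, ganglia of both ligated groups came from the left side and those of Sham from the right side, and none of the 3 groups had UNC0638 without ligation. Side and ligation therefore cannot be told apart. The labels give no age, sex, dose or time after surgery. They do not say that replicates were separate animals, so p-values measure the spread between these libraries, which may be technical.

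Laminins are laid down by Schwann cells, satellite glia, fibroblasts and vessels, and the axons of sensory neurons grow well on them. On these neurons and their glia the laminin receptors are pairs of the beta chain Itgb1 with an alpha chain such as Itga6 or Itga7, while Schwann cells also pair Itga6 with Itgb4. Leukocytes carry another set, built on Itgb2 and Itgb7, with which they leave the blood and bind other cells. Most other integrins bind collagen, fibronectin or vitronectin, or activate the growth factor TGF-beta.

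Values are the authors' counts after scaling by library, given here in the order of the replicate numbers. Library totals were 9450045 to 11347920, and 6127881 to 24367805 reads were estimated from the step between low values. The libraries were not alike within groups. Skeletal muscle markers (12 genes in the table) summed to 82318 in SNL plus UNC0638 replicate 1, against 619 and 525 in its other replicates, 318 to 720.1 in SNL and 236 to 294 in Sham. In that library the 27 genes lay at a median of -0.47 from the mean of their group on the log2 scale, against 0.20 and 0.23 in the other replicates. Sham replicate 3 lay at 0.25, against -0.14 to -0.04 in the other Sham libraries. Over all genes tested these medians were within -0.01 to 0.02 in every library. Scaling by library tends to hold such a median near 0. It therefore does not show that the libraries were otherwise alike or that the shifts were particular to the 27 genes. Macrophage markers summed to 5630 in Sham replicate 3 and to 2427 to 3094 in the other Sham libraries.

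Stretches of promoter are shown for 3 genes on which the results turn: Itgam, a leukocyte integrin alpha gene, Itgb6, the gene that fell most with ligation, and Lamc1, a chain of most laminins. They are the 250 bases before the gene start in RefSeq (build GRCr8, later than the build of the data), printed 5′ to 3′ on the gene's strand. Capitals mark GAGGAA or its reverse complement, the core of sites of PU.1, a transcription factor of myeloid cells.
Itgam (chr1:192089342-192089591, + strand): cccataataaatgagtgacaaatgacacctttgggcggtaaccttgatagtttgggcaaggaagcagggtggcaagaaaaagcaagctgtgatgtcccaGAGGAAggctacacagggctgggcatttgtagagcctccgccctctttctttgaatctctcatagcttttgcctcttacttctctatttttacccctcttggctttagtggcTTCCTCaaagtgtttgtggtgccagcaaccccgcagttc
Itgb6 (chr3:65530334-65530583, - strand): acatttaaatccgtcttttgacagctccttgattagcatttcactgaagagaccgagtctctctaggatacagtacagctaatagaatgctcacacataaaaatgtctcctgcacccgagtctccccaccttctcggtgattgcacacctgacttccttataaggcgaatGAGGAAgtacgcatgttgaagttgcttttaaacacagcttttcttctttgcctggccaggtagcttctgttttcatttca
Lamc1 (chr13:68051987-68052236, - strand): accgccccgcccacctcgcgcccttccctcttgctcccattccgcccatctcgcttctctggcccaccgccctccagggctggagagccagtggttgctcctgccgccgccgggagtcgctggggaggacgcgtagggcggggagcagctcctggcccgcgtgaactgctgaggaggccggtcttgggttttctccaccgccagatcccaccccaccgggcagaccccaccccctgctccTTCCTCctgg
RefSeq promoters were matched for 21 of the 29 genes. GAGGAA was found on either strand in 9 of the 21 and in 23.3% of all 33469 promoters. Itgam held it in both orientations and the leukocyte genes Itga4 and Itgb7 held none. The AP-1 motif TGANTCA was in 0 of 21 and in 6.34% of all promoters. The cAMP response element TGACGTCA was in 1 of 21, Lamb3, and in 1.59% of all. Each motif was searched on both strands, and GAGGAA is the only one of them in the stretches shown. A match is a run of letters and says nothing of binding.

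Ligation was associated with higher RNA of most integrin and laminin genes, and with lower RNA of a few. With SNL against Sham, 20 of the 27 tested genes rose and 3 fell at an adjusted p under 0.05, where 24.8% of all 12087 tested genes rose and 23.4% fell (48.2% in all). Libraries of both groups did not overlap for 24 of the 27 genes (88.9%), and for 43.3% of all genes. The median log2 fold change was 1.26 over the 27 and -0.00331 over all genes. Itgad and Lamb3 reached the minimum for testing in ligated libraries alone, their highest Sham values being 5.68 and 4.17, so that a difference was built into their selection. Of the other 25 genes, 18 rose and 3 fell. With SNL plus UNC0638 against Sham, 16 rose and 3 fell, against 25.5% and 26% of all genes (51.5% in all), with medians of 0.95 and -0.01. The groups did not overlap for 18 of the 27 (66.7%), and for 48.4% of all genes. With SNL plus UNC0638 against SNL, 2 were higher and 5 lower, against 13.5% and 14.3% of all genes, with medians of -0.08 and 0.01. The share of the 27 genes called in that last comparison (25.9%) was near the share of all genes (27.8%), as was the share without overlap, 10 of 27 (37%) against 37.6%. The 3 comparisons share libraries with each other and are not independent. Unless said otherwise, tests are limma's moderated test on log2(scaled count + 1), two-sided, with Benjamini-Hochberg adjustment over all genes tested.

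**Figure D1:**
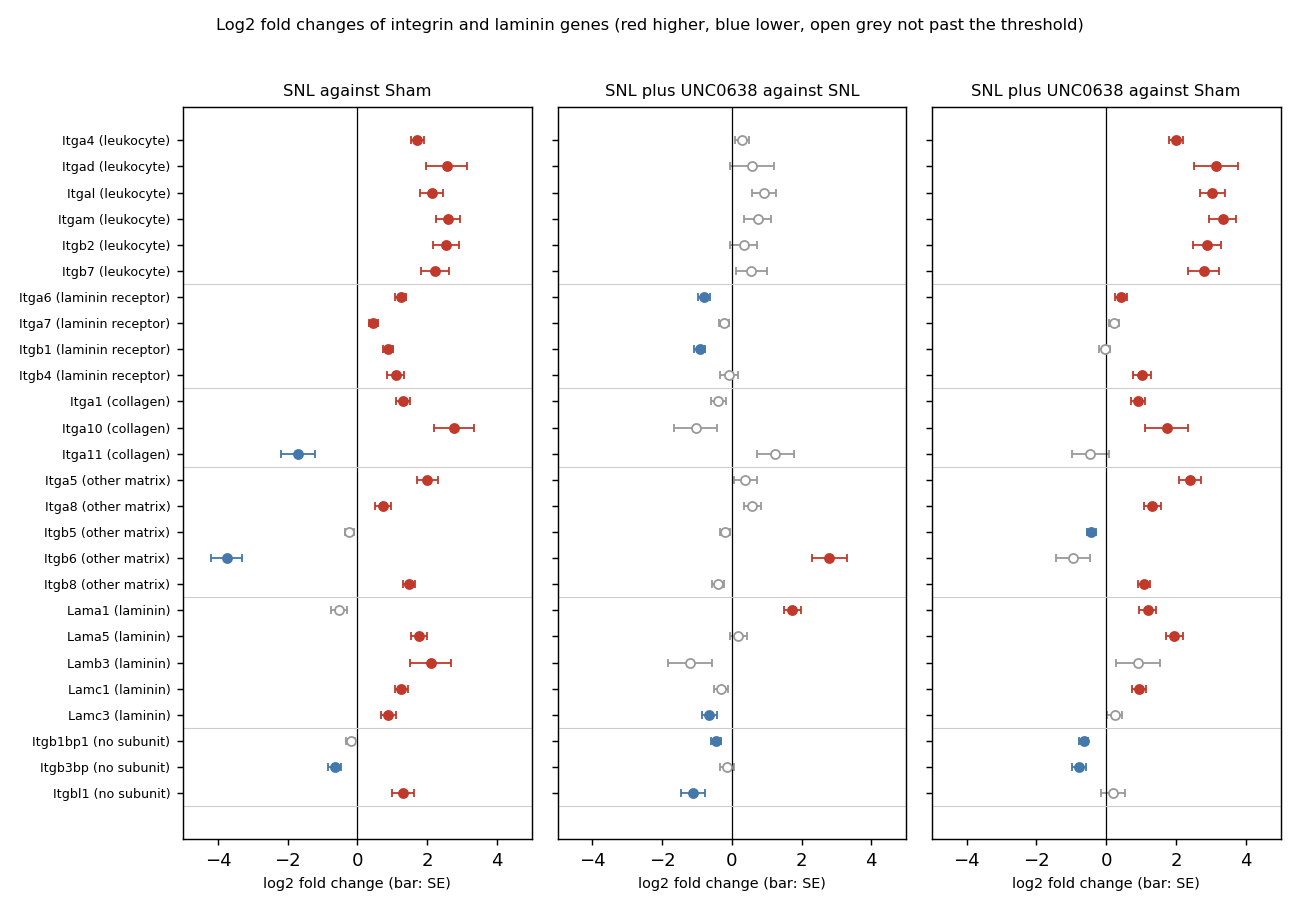
Log2 fold changes (x axis, bars are the SE) of 26 of the tested genes (y axis, grouped by role) in the 3 comparisons. Filled red points were higher and filled blue points lower at an adjusted p under 0.05, and open grey points did not pass. The 6 leukocyte integrin genes were red in both comparisons with Sham and open with SNL plus UNC0638 against SNL.

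Leukocyte integrin genes had a median log2 fold change of 2.39 with SNL against Sham and of 2.97 with SNL plus UNC0638 against Sham. All 6 in the table (Itgam, Itgal, Itgad, Itgb2, Itga4 and Itgb7) rose with SNL against Sham, by log2 fold changes of 1.72 (Itga4) to 2.60 (Itgam), and with SNL plus UNC0638 against Sham, by 2.01 to 3.34. Of all genes tested, 24.8% and 25.5% rose in these comparisons. Itgad, which counts in these medians, reached the minimum for testing in ligated libraries alone, so a difference from Sham was built into its selection. None passed with SNL plus UNC0638 against SNL, where their log2 fold changes were 0.29 to 0.92. There 1 of the 6 had an unadjusted p under 0.05. With limma-voom on estimated reads 3 of the 6 passed at an adjusted p under 0.05, Itgal (log2 fold change 1.19, adjusted p = 0.000531), Itgam (log2 fold change 1.00, adjusted p = 0.00191) and Itga4 (log2 fold change 0.59, adjusted p = 0.0179). Limma-voom called 40% of all genes there, and their median log2 fold change was 0.13. With SNL plus UNC0638 replicate 1, SNL replicate 3 and Sham replicate 3 left out together, a choice made after seeing the data, Itgam (log2 fold change 1.02, adjusted p = 0.000222), Itgal, Itga4 and Itgb7 were higher there. That choice called 44% of all genes in this comparison. Itgam, the alpha chain of the complement receptor of macrophages and neutrophils, had 369, 834 and 822 in SNL plus UNC0638, 399, 438, 303 and 387 in SNL and 51.5, 45.4, 132 and 46.1 in Sham. Every ligated library was above every Sham library, and SNL plus UNC0638 replicates 2 and 3 were above all SNL libraries while replicate 1 was among them. The gene rose with SNL against Sham (log2 fold change 2.60 with SE 0.35, adjusted p = 0.000202) and with SNL plus UNC0638 against Sham (log2 fold change 3.34 with SE 0.38, adjusted p = 0.000112). SNL plus UNC0638 against SNL gave log2 fold change 0.74 with SE 0.38, adjusted p = 0.156.

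Itgb2, the beta chain shared by Itgam, Itgal and Itgad, had 237, 541 and 503 in SNL plus UNC0638, 465, 310.4, 214 and 325 in SNL and 57.0, 38.6, 103 and 35.4 in Sham. Both ligated groups overlapped each other and neither overlapped Sham. Against Sham it rose in SNL (log2 fold change 2.55 with SE 0.37, adjusted p = 0.000280) and in SNL plus UNC0638 (log2 fold change 2.89 with SE 0.39, adjusted p = 0.000255). Itgal, which with Itgb2 forms the ICAM receptor of lymphocytes, had 274, 596 and 526 in SNL plus UNC0638, 272, 238, 180.2 and 251 in SNL and 39.0, 43.2, 104 and 43.0 in Sham. All 3 SNL plus UNC0638 libraries were above the highest SNL library, by little in replicate 1. Itgal was higher in SNL than in Sham (log2 fold change 2.13 with SE 0.32, adjusted p = 0.000369) and higher in SNL plus UNC0638 than in Sham (log2 fold change 3.05 with SE 0.35, adjusted p = 0.000120). The difference between SNL plus UNC0638 and SNL missed the threshold (log2 fold change 0.92 with SE 0.35, adjusted p = 0.0669).

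Itga4, the alpha chain that binds VCAM and fibronectin, had 342, 541 and 677 in SNL plus UNC0638, 490.0, 381, 364 and 415 in SNL and 131, 108, 140.2 and 118 in Sham. All ligated libraries were well above the highest Sham library, and SNL plus UNC0638 replicate 1 was the lowest of them. It had the smallest p of the group with SNL against Sham (log2 fold change 1.72 with SE 0.19, adjusted p = 0.000110) and the smallest of all 27 genes with SNL plus UNC0638 against Sham (log2 fold change 2.01 with SE 0.21, adjusted p = 7.60e-05). Itgb7, its partner on gut-homing lymphocytes, had 60.1, 184 and 134 in SNL plus UNC0638, 119, 85.3, 45.8 and 75.7 in SNL and 15.3, 14.8, 28.0 and 9.22 in Sham. It rose in both ligated groups against Sham, by 2.23 in SNL and 2.79 in SNL plus UNC0638 on the log2 scale. Itgad, an alpha chain of tissue macrophages, was low throughout, with 16.1, 44.9 and 36.1 in SNL plus UNC0638, 35.7, 21.0, 17.3 and 10.9 in SNL and 4.17, 5.68, 3.12 and 0 in Sham. Itgad resembles Itgam in sequence, and the counting of reads that match both genes is not stated in the labels.

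**Figure D2:**
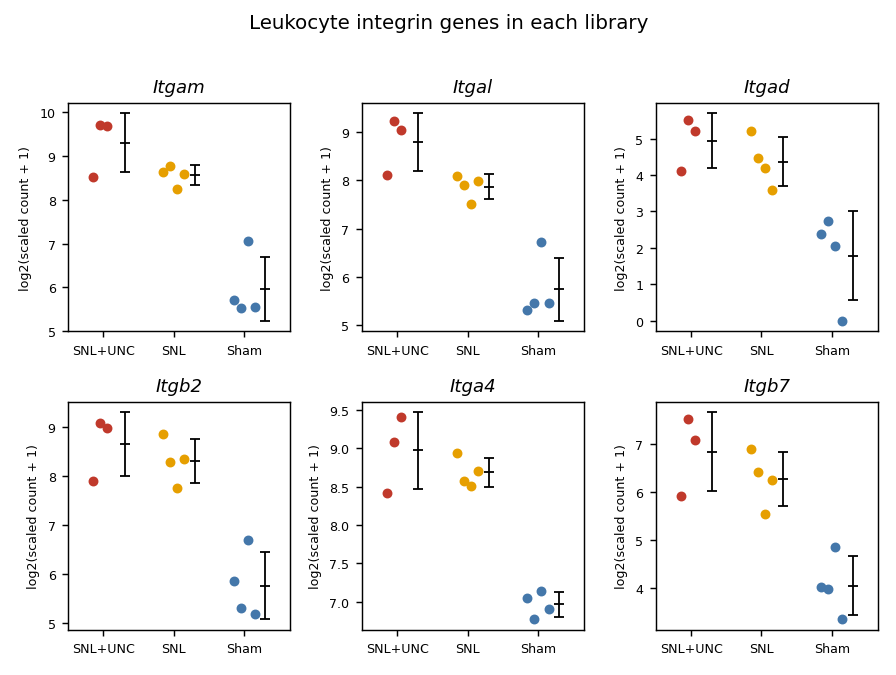
log2(scaled count + 1) (y axis) of the 6 leukocyte integrin genes in each library of SNL plus UNC0638, SNL and Sham (x axis), with the mean and SD of each group as a bar beside the points. All 7 ligated libraries lie above the 4 Sham libraries for each gene, and of the Sham libraries replicate 3 is the highest for Itgam, Itgal, Itgb2, Itga4 and Itgb7. Itgad reached the minimum for testing in ligated libraries alone.

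Summed markers of macrophages and of T and NK cells were higher in the ligated libraries than in Sham. Of 13 tested macrophage markers 12 rose with SNL against Sham (92.3% called, against 48.2% of all genes). Their sum was 10377 to 17986 in SNL plus UNC0638, 13590.2 to 22144 in SNL and 2427 to 5630 in Sham (14 in the table, with Emr1 listed at 0 throughout). T and NK cell markers summed to 749.8 to 1409 in SNL plus UNC0638, 888 to 1271 in SNL and 192 to 475 in Sham. Of 11 tested, 9 rose with SNL against Sham (81.8% called). These sums hide members that went both ways with SNL plus UNC0638 against SNL. There 4 of the 11 were higher and 1 lower (45.5% called, against 27.8% of all genes), with log2 fold changes of -2.82 to 1.85 and a median of 1.26. Neutrophil markers summed to 831 to 1109 in SNL plus UNC0638, 138 to 261 in SNL and 59.2 to 287 in Sham. The SNL sums lay within the Sham range, and 2 of 7 rose with SNL against Sham (28.6% called, against 48.2% of all genes). With SNL plus UNC0638 against SNL 3 of 7 were higher (42.9% called, against 27.8%). B cell markers summed to 16.1 to 67.1 in SNL plus UNC0638, 19.2 to 30.8 in SNL and 6.82 to 20.3 in Sham, with overlapping ranges. In these bulk samples more cells of a type and more RNA per cell cannot be told apart, and the part of these markers in the integrin results was not tested.

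Integrin genes of laminin receptors on sensory neurons and glia all rose with ligation, and 2 of the 4 were lower with UNC0638. Itga6, Itga7, Itgb1 and Itgb4 rose with SNL against Sham by log2 fold changes of 0.46 to 1.24. Of all genes tested, 24.8% rose there and 14.3% were lower with SNL plus UNC0638 against SNL. Itgb1, the beta chain of most matrix receptors, had 5593, 7177 and 8413 in SNL plus UNC0638, 14447, 14136, 10837 and 13828 in SNL and 7319, 7933, 6393 and 7248 in Sham. SNL libraries stood above all others, and SNL plus UNC0638 libraries spread across and beyond the Sham range. It rose with SNL against Sham (log2 fold change 0.88 with SE 0.15, adjusted p = 0.000619) and was lower with SNL plus UNC0638 against SNL (log2 fold change -0.93 with SE 0.16, adjusted p = 0.00227). Between SNL plus UNC0638 and Sham the test was not passed (log2 fold change -0.05 with SE 0.16, adjusted p = 0.813).

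Itga6, the laminin-binding alpha chain that pairs with Itgb1 or Itgb4, had 2860.1, 4321 and 5089 in SNL plus UNC0638, 7166, 6276, 7109 and 7328 in SNL and 3039.7, 2823, 3196 and 2718 in Sham. Replicate 1 of SNL plus UNC0638 lay within the Sham range and its other replicates lay between the Sham and SNL ranges. Itga6 rose with SNL against Sham (log2 fold change 1.24 with SE 0.16, adjusted p = 0.000160) and was lower with SNL plus UNC0638 against SNL (log2 fold change -0.81 with SE 0.17, adjusted p = 0.00626). It was just past the threshold with SNL plus UNC0638 against Sham (log2 fold change 0.44 with SE 0.17, adjusted p = 0.0494), a call that was lost in 13 of 21 alternative settings (adjusted p of 0.0512 to 0.237), among them without any 1 library other than SNL plus UNC0638 replicate 1 and Sham replicate 3. Itgb4, the Schwann cell partner of Itga6, had 11224, 18552 and 13708 in SNL plus UNC0638, 12335, 12952, 14756 and 21196 in SNL and 6724, 5378, 10695 and 6195 in Sham. Both ligated groups were above Sham, where replicate 3 was highest, and they overlapped each other. Itgb4 rose with SNL against Sham (log2 fold change 1.10 with SE 0.24, adjusted p = 0.00309) and with SNL plus UNC0638 against Sham (log2 fold change 1.02 with SE 0.26, adjusted p = 0.00677), with log2 fold change -0.08 with SE 0.26, adjusted p = 0.841 between the ligated groups.

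Itga7, a laminin receptor chain of skeletal muscle that injured sensory neurons of mice also express, had 4580.4, 6018 and 5459 in SNL plus UNC0638, 6391, 6892, 6434 and 5352 in SNL and 4417, 3913, 5193 and 4761 in Sham. The SNL libraries were above the Sham libraries, with replicate 4 just above the highest Sham value. Its rise with SNL against Sham was the smallest of the group (log2 fold change 0.46 with SE 0.13, adjusted p = 0.0134). Neither comparison of SNL plus UNC0638 passed (log2 fold changes -0.23 against SNL and 0.23 against Sham). With limma-voom Itga7 passed as higher against Sham (log2 fold change 0.51, adjusted p = 0.00160), where 63.6% of all genes were called. The library with the high muscle markers, SNL plus UNC0638 replicate 1, held the lowest value of its group. Nociceptor markers (8 genes) summed to 20989 to 41747 in SNL plus UNC0638, 7551 to 17764 in SNL and 47383 to 59948 in Sham. Large-diameter sensory neuron markers (8 genes) summed to 89586 to 180764 in SNL plus UNC0638, 43413 to 127747 in SNL and 231129 to 366553 in Sham. Schwann cell markers (9 genes) summed to 66965 to 75562 in SNL plus UNC0638, 74731 to 105075 in SNL and 75351 to 84435 in Sham. That sum hides members that went both ways with SNL against Sham, with log2 fold changes of -0.95 to 1.95. Of the 9, 4 rose and 1 fell there (55.6% called, against 48.2% of all genes). Satellite glia markers (5 genes) summed to 4491 to 8798 in SNL plus UNC0638, 5062 to 6683 in SNL and 3003 to 3367 in Sham. With SNL against Sham, however, 2 of the 5 rose and 2 fell (80% called). Nerve injury markers (8 genes) summed to 3695 to 13484 in SNL plus UNC0638, 25707 to 39551 in SNL and 3799 to 5038 in Sham, where Sprr1a was listed at 0. SNL plus UNC0638 replicate 1 was the lowest of its group for nerve injury markers, at 3695 against 10847 and 13484 in replicates 2 and 3 and below every Sham library, and had its highest nociceptor sum. The part of these markers in the results on laminin receptors was not tested.

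Collagen-binding integrin genes went different ways. Itga1, a receptor of collagens and laminins, had 245, 389.9 and 409 in SNL plus UNC0638, 451, 407, 462 and 457 in SNL and 195, 145, 242 and 151 in Sham. SNL libraries lay close together, SNL plus UNC0638 replicate 1 was just above the highest Sham library, and the ligated groups overlapped. It rose with SNL against Sham (log2 fold change 1.30 with SE 0.19, adjusted p = 0.000307) and with SNL plus UNC0638 against Sham (log2 fold change 0.92 with SE 0.21, adjusted p = 0.00355). Itga10, known from cartilage, was low, with 14.3, 29.4 and 25.8 in SNL plus UNC0638, 43.3, 42.0, 34.5 and 75.7 in SNL and 1.39, 3.41, 17.1 and 11.5 in Sham. Every SNL library was above every library of the other groups. Itga10 rose with SNL against Sham (log2 fold change 2.77 with SE 0.57, adjusted p = 0.00206), and with SNL plus UNC0638 against Sham (log2 fold change 1.73 with SE 0.61, adjusted p = 0.0329) in a call that was lost in 5 of 20 alternative settings (adjusted p of 0.0593 to 0.113), among them without SNL plus UNC0638 replicates 2 or 3 or Sham replicates 1 or 2.

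Itga11, a collagen receptor of fibroblasts, was the collagen-binding gene that fell. It had 80.7, 30.9 and 38.7 in SNL plus UNC0638, 16.0, 12.0, 42.8 and 14.6 in SNL and 45.9, 47.7, 157 and 46.9 in Sham. Replicate 3 was highest in both SNL and Sham, and the SNL and Sham ranges were close but did not overlap. Itga11 fell with SNL against Sham (log2 fold change -1.71 with SE 0.49, adjusted p = 0.0136). SNL plus UNC0638 against SNL gave log2 fold change 1.25 with SE 0.53, adjusted p = 0.0953, and without Sham replicate 3 and SNL replicate 3 it passed (log2 fold change 1.64, adjusted p = 0.00268). All 8 fibroblast markers rose with SNL against Sham, where 24.8% of all genes rose. With SNL plus UNC0638 against SNL 4 of 8 were lower, as were 14.3% of all genes. The fibroblast markers summed to 38058 to 93348 in SNL plus UNC0638, 86028 to 217368 in SNL and 24079 to 33774 in Sham. Their part in the results on matrix receptors was not tested.

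Of the 5 other matrix-binding integrin genes, Itga5, Itga8 and Itgb8 rose with SNL against Sham, Itgb6 fell and Itgb5 did not pass. The share called was 80%, against 48.2% of all genes. Itgb6, the epithelial beta chain that activates TGF-beta, had 146, 69.6 and 54.2 in SNL plus UNC0638, 9.41, 6.0, 32.3 and 7.30 in SNL and 178, 185, 134 and 146 in Sham. SNL libraries stood below all others, with replicate 3 the highest of them, and SNL plus UNC0638 replicate 1 was within the Sham range. Itgb6 had the lowest log2 fold change of the 27 genes with SNL against Sham (log2 fold change -3.75 with SE 0.45, adjusted p = 0.000135), 13.5-fold lower. It was 6.98-fold higher with SNL plus UNC0638 against SNL (log2 fold change 2.80 with SE 0.49, adjusted p = 0.00256), the highest of the 27 there. SNL replicates 1, 2 and 4 were under 10, so the size of both folds is uncertain. With a pseudocount of 5, SNL against Sham gave log2 fold change -3.32. Without SNL plus UNC0638 replicate 1, SNL plus UNC0638 against SNL gave log2 fold change 2.39 (adjusted p = 0.0111). SNL plus UNC0638 against Sham gave log2 fold change -0.95 with SE 0.49, adjusted p = 0.124. With limma-voom Itgb6 passed as lower there (log2 fold change -1.03, adjusted p = 0.00593), where 63.6% of all genes were called.

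Itgb8, another TGF-beta-activating beta chain, had 2601, 4375 and 4379 in SNL plus UNC0638, 4646, 5142, 5149.6 and 4532 in SNL and 1690.3, 1677, 2058 and 1577 in Sham. The 3 groups did not overlap, with SNL highest and Sham lowest. It rose with SNL against Sham (log2 fold change 1.48 with SE 0.16, adjusted p = 0.000110) and with SNL plus UNC0638 against Sham (log2 fold change 1.08 with SE 0.18, adjusted p = 0.000630), and the difference between the ligated groups missed the threshold (log2 fold change -0.40 with SE 0.18, adjusted p = 0.109). Itga5, the fibronectin receptor alpha chain, had 219.7, 379 and 306 in SNL plus UNC0638, 228, 189, 168 and 347 in SNL and 44.5, 54.5, 93.5 and 40.0 in Sham. Both ligated groups were above Sham and overlapped each other. Itga5 rose with SNL against Sham (log2 fold change 2.01 with SE 0.29, adjusted p = 0.000303) and with SNL plus UNC0638 against Sham (log2 fold change 2.40 with SE 0.32, adjusted p = 0.000227).

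Itga8, a receptor of nephronectin in mesenchyme and smooth muscle, had 153, 299 and 299 in SNL plus UNC0638, 223, 147, 128 and 152 in SNL and 103, 93.2, 96.6 and 88.4 in Sham. SNL plus UNC0638 replicates 2 and 3 were above all SNL libraries and replicate 1 was among them. Itga8 rose with SNL plus UNC0638 against Sham (log2 fold change 1.32 with SE 0.25, adjusted p = 0.00122) and with SNL against Sham (log2 fold change 0.73 with SE 0.23, adjusted p = 0.0198), a call lost without SNL replicate 1 (adjusted p = 0.0626) or without Sham replicate 4 (adjusted p = 0.0509). SNL plus UNC0638 against SNL gave log2 fold change 0.59 with SE 0.25, adjusted p = 0.0917, and without SNL plus UNC0638 replicate 1 it passed (log2 fold change 0.91, adjusted p = 0.0132). Itgb5, a vitronectin receptor chain, averaged 951 ± 92.3 in SNL plus UNC0638 (SD, n = 3), 1086 ± 55.8 in SNL and 1288 ± 229 in Sham (SD, n = 4 each). It was lower with SNL plus UNC0638 against Sham (log2 fold change -0.43 with SE 0.14, adjusted p = 0.0226), a call lost in 3 of 21 alternative settings, among them without SNL plus UNC0638 replicate 3 (adjusted p of 0.0540 to 0.265 where it was lost).

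**Figure D3:**
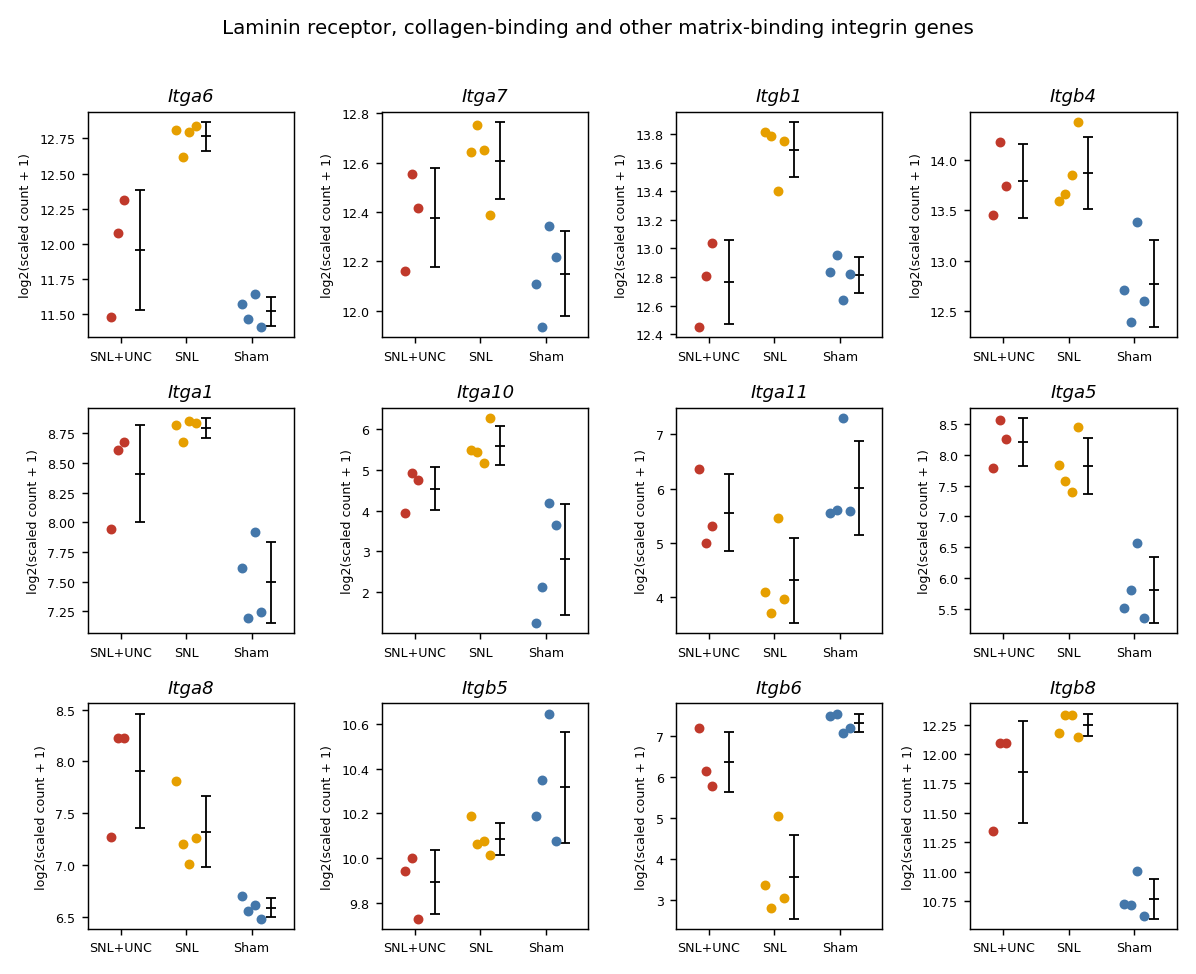
log2(scaled count + 1) (y axis) of the 4 laminin receptor genes, 3 collagen-binding genes and 5 other matrix-binding genes in each library of SNL plus UNC0638, SNL and Sham (x axis), with the mean and SD of each group as a bar beside the points. Each panel has its own scale. Itgb1 is high in SNL and alike in range in the other groups, while Itgb6 is low in SNL.

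Of the 6 laminin chain genes tested, 4 rose with SNL against Sham and 0 fell, where 24.8% of all genes rose and 23.4% fell. Lamb3, among the 4, reached the minimum for testing in ligated libraries alone. Lama1 was lower at an unadjusted p under 0.05, and passed as lower with limma-voom (log2 fold change -0.64, adjusted p = 0.0269). Lamc1, the gamma chain of most laminins, had 5437, 9072 and 8645 in SNL plus UNC0638, 9572, 8839.5, 8654 and 10453 in SNL and 3763, 3411, 5240.2 and 3421 in Sham. Every ligated library was above every Sham library, narrowly for SNL plus UNC0638 replicate 1. Lamc1 rose with SNL against Sham (log2 fold change 1.26 with SE 0.18, adjusted p = 0.000291) and with SNL plus UNC0638 against Sham (log2 fold change 0.95 with SE 0.20, adjusted p = 0.00229). Lama5, an alpha chain of mature basement membranes, had 843, 1541 and 1505 in SNL plus UNC0638, 979, 1119, 1217 and 1098 in SNL and 316, 232, 475 and 314 in Sham. The ligated groups overlapped each other and neither overlapped Sham. Lama5 rose with SNL against Sham (log2 fold change 1.76 with SE 0.23, adjusted p = 0.000169) and with SNL plus UNC0638 against Sham (log2 fold change 1.95 with SE 0.24, adjusted p = 0.000175).

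Lama1, the alpha chain of early embryonic basement membranes, had the smallest p of the 27 genes between the ligated groups. It had 44.8, 58.8 and 55.5 in SNL plus UNC0638, 15.0, 11.1, 18.0 and 17.3 in SNL and 20.9, 20.4, 26.5 and 22.3 in Sham. The 3 SNL plus UNC0638 libraries were above all others, and the SNL libraries were all below the Sham libraries. Lama1 was higher with SNL plus UNC0638 against SNL (log2 fold change 1.73 with SE 0.24, adjusted p = 0.0010) and against Sham (log2 fold change 1.20 with SE 0.24, adjusted p = 0.00192). SNL against Sham missed the threshold (log2 fold change -0.54 with SE 0.22, adjusted p = 0.0669). The difference from SNL was as large with the library that held muscle RNA left out (log2 fold change 1.85, adjusted p = 0.00246).

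Lamc3, the gamma chain of a few laminins of skin and brain, had 202, 237 and 182 in SNL plus UNC0638, 346, 339.9, 237 and 384 in SNL and 167, 148, 254 and 143 in Sham. The SNL range reached above all others and its replicate 3 lay among them. Lamc3 rose with SNL against Sham (log2 fold change 0.89 with SE 0.20, adjusted p = 0.00384). It was lower with SNL plus UNC0638 against SNL (log2 fold change -0.64 with SE 0.22, adjusted p = 0.0471), in a call lost in 11 of 21 alternative settings, among them without any 1 of the SNL plus UNC0638 libraries, of SNL replicates 1, 2 and 4 or of Sham replicates 1, 2 and 4 (adjusted p of 0.0528 to 0.135 where it was lost). Lamb3, a beta chain of epithelial laminin, had 0.897, 10.8 and 15.5 in SNL plus UNC0638, 13.2, 16.3, 15.8 and 16.4 in SNL and 4.17, 2.27, 1.56 and 3.84 in Sham. It rose with SNL against Sham (4.30-fold, adjusted p = 0.0112), a difference that was built into its selection for testing. Its SNL plus UNC0638 libraries were split, with replicate 1 at the level of 1 read. Endothelial markers (7 genes, Cldn5 listed at 0 throughout) summed to 2852 to 3940.4 in SNL plus UNC0638, 2610.3 to 3138 in SNL and 1298 to 2239 in Sham. Pericyte and smooth muscle markers (5 genes) summed to 4085 to 5641 in SNL plus UNC0638, 3405 to 5246 in SNL and 1877 to 2767 in Sham. The part of these and of the fibroblast markers in the results on laminins was not tested.

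**Figure D4:**
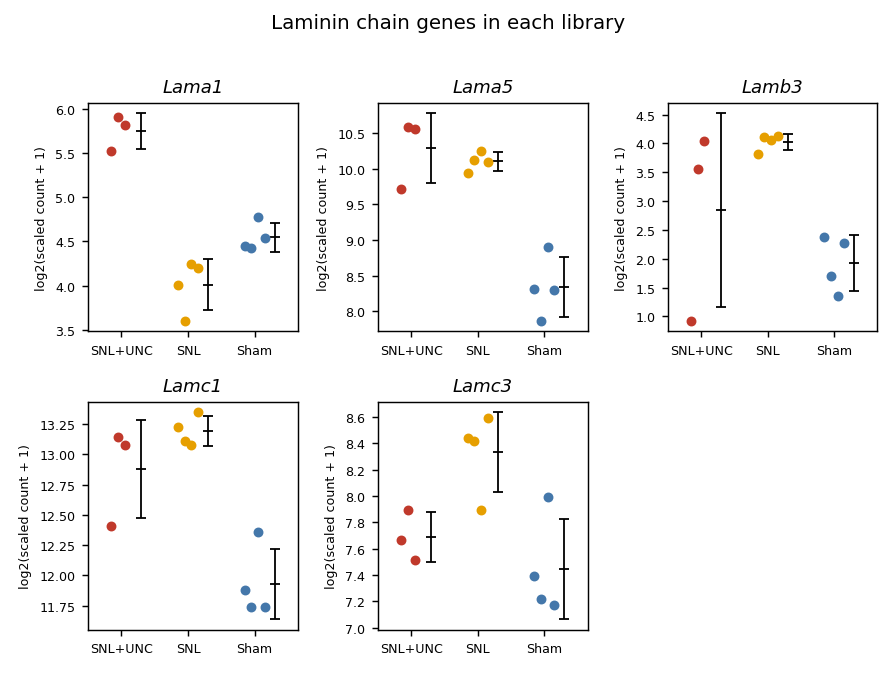
log2(scaled count + 1) (y axis) of 5 laminin chain genes in each library of SNL plus UNC0638, SNL and Sham (x axis), with the mean and SD of each group as a bar beside the points. Each panel has its own scale. Lamc1 and Lama5 are above Sham in all 7 ligated libraries, and Lama1 is highest in the 3 SNL plus UNC0638 libraries.

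The 4 genes that share the Itgb prefix without encoding a subunit behaved each in its own way. Itgbl1, a secreted protein with repeats like those of beta chains, had 202, 326 and 351 in SNL plus UNC0638, 773, 478, 360.4 and 1087 in SNL and 229.5, 311, 268 and 201 in Sham. SNL libraries were above all others, with replicate 3 just so. It rose with SNL against Sham (log2 fold change 1.30 with SE 0.31, adjusted p = 0.00499) and was lower with SNL plus UNC0638 against SNL (log2 fold change -1.11 with SE 0.34, adjusted p = 0.0296). That lower value lost its call in 7 of 21 alternative settings, among them without SNL plus UNC0638 replicate 2, SNL replicate 1 or SNL replicate 4, and without SNL plus UNC0638 replicate 1 (log2 fold change -0.86, adjusted p = 0.110). Itgb1bp1, a protein that binds the tail of Itgb1 and holds it inactive, had 756, 589 and 664 in SNL plus UNC0638, 919, 942, 836 and 973 in SNL and 1169, 1168, 846 and 1041 in Sham. SNL plus UNC0638 libraries were below all others. It was lower with SNL plus UNC0638 against Sham (log2 fold change -0.65 with SE 0.14, adjusted p = 0.00237) and against SNL (log2 fold change -0.46 with SE 0.14, adjusted p = 0.0285), the second a call lost in 6 of 21 alternative settings (adjusted p of 0.0588 to 0.110), among them without SNL plus UNC0638 replicates 2 or 3 or SNL replicates 1, 2 or 4.

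Itgb3bp, a centromere protein named for its binding to Itgb3, had 65.5, 48.0 and 63.2 in SNL plus UNC0638, 59.3, 58.3, 57.1 and 84.8 in SNL and 84.9, 120.4, 95.0 and 106 in Sham. The ligated groups overlapped each other, and SNL replicate 4 nearly reached the lowest Sham library. It fell with SNL against Sham (log2 fold change -0.65 with SE 0.19, adjusted p = 0.0150) and with SNL plus UNC0638 against Sham (log2 fold change -0.78 with SE 0.21, adjusted p = 0.00819). Itgb1bp2, a muscle protein that binds Itgb1, was not tested and had 16.1, 12.4 and 7.74 in SNL plus UNC0638, 2.82, 4.29, 0 and 7.30 in SNL and 4.17, 2.27, 1.56 and 4.61 in Sham. Its values were highest in the SNL plus UNC0638 libraries, of which only replicate 1 had high muscle markers, and were low throughout.

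Partners of the integrins inside and outside the cell were counted from lists chosen by function. Of 22 tested genes of integrin adaptors and focal adhesions, 13 rose and 2 fell with SNL against Sham, 11 rose and 2 fell with SNL plus UNC0638 against Sham, and 1 was higher and 2 lower with SNL plus UNC0638 against SNL. The shares called were 68.2%, 59.1% and 13.6% in these comparisons, against 48.2%, 51.5% and 27.8% of all genes. Parvg, an adaptor of leukocytes, averaged 105 ± 7.84 in SNL and 22.9 ± 11.8 in Sham (SD, n = 4 each; log2 fold change 2.26, adjusted p = 0.000166). Fermt3, the kindlin that activates integrins in blood cells, averaged 206 ± 4.81 in SNL and 89.5 ± 22.3 in Sham (SD, n = 4 each; log2 fold change 1.22, adjusted p = 0.000357). Lims1, an adaptor bound to integrin-linked kinase, averaged 446 ± 40.8 in SNL plus UNC0638 (SD, n = 3) and 840.5 ± 92.0 in SNL (SD, n = 4), lower with UNC0638 (log2 fold change -0.91, adjusted p = 0.000760). Ilk, that kinase, was lower as well, at 1149.6 ± 32.3 in SNL plus UNC0638 and 1566 ± 90.6 in SNL (log2 fold change -0.44, adjusted p = 0.0102). Parvb, another partner of the kinase, was the 1 adaptor gene higher there (log2 fold change 1.03, adjusted p = 0.0148). With SNL against Sham Lims1 rose (log2 fold change 0.74, adjusted p = 0.000348) and Parvb fell (log2 fold change -1.38, adjusted p = 0.000859). Genes not particular to leukocytes were also among those that rose there, such as Tln1, Vcl and Ptk2 (log2 fold changes 1.27, 0.78 and 0.71).

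Of 10 tested ligands and counter-receptors, 6 rose and 1 fell with SNL against Sham, 7 rose and 1 fell with SNL plus UNC0638 against Sham, and 1 was higher and 3 lower with SNL plus UNC0638 against SNL. The shares called were 70%, 80% and 40%, against 48.2%, 51.5% and 27.8% of all genes. Fn1, which encodes the ligand of Itga5, fibronectin, averaged 15718 ± 8269.7 in SNL and 2136 ± 668 in Sham (SD, n = 4 each; log2 fold change 2.78, adjusted p = 0.000414). Postn, a matrix ligand made by fibroblasts, averaged 480.5 ± 284 in SNL plus UNC0638 (SD, n = 3), 1512 ± 509 in SNL and 163 ± 52.4 in Sham (SD, n = 4 each). It rose with SNL against Sham (log2 fold change 3.21, adjusted p = 0.000109) and was lower with SNL plus UNC0638 against SNL (log2 fold change -1.75, adjusted p = 0.00707). Tgfbi, another matrix protein bound by integrins, went the same ways (log2 fold change 2.76, adjusted p = 0.000197, and log2 fold change -1.53, adjusted p = 0.0163), and Vtn, which encodes vitronectin, was lower with SNL plus UNC0638 against SNL (log2 fold change -1.03, adjusted p = 0.0105). Vcam1, which encodes a ligand of Itga4, averaged 516 ± 135 in SNL plus UNC0638 (SD, n = 3) and 229 ± 28.5 in Sham (SD, n = 4), and rose (log2 fold change 1.14, adjusted p = 0.000480). It also rose with SNL against Sham (log2 fold change 0.56, adjusted p = 0.0162). Vcam1 was the 1 gene higher with SNL plus UNC0638 against SNL (log2 fold change 0.59, adjusted p = 0.0309). Icam1, which encodes a ligand of Itgal and Itgam, rose with SNL plus UNC0638 against Sham (log2 fold change 2.74, adjusted p = 0.000846) and with SNL against Sham (log2 fold change 1.82, adjusted p = 0.00550).

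Of 10 tested genes of other basement membrane and laminin-binding proteins, 5 rose and 0 fell with SNL against Sham (0 also at an unadjusted p under 0.05 and with limma-voom), 4 rose and 1 fell with SNL plus UNC0638 against Sham, and 0 were higher (1 at an unadjusted p under 0.05 and 1 with limma-voom) and 3 lower with SNL plus UNC0638 against SNL. The shares called, 50%, 50% and 30%, were near the 48.2%, 51.5% and 27.8% of all genes. Nid2, a nidogen that links laminin to collagen IV, averaged 2001 ± 579 in SNL plus UNC0638 (SD, n = 3), 3282 ± 693 in SNL and 870.2 ± 146 in Sham (SD, n = 4 each). It rose with SNL against Sham (log2 fold change 1.91, adjusted p = 0.000105) and was lower with SNL plus UNC0638 against SNL (log2 fold change -0.74, adjusted p = 0.0298). Agrn, the laminin-binding proteoglycan agrin, averaged 2489 ± 542 in SNL plus UNC0638 (SD, n = 3) and 753 ± 252 in Sham (SD, n = 4), and rose (log2 fold change 1.76, adjusted p = 0.000210). It also rose with SNL against Sham (log2 fold change 1.13, adjusted p = 0.00126). Col4a1, a chain of basement membrane collagen, rose with SNL against Sham (log2 fold change 1.22, adjusted p = 0.00304). Ntn4, a netrin that binds laminin, was lower with SNL plus UNC0638 against SNL (log2 fold change -0.82, adjusted p = 0.0186), as was Sgcb, a sarcoglycan of the dystroglycan complex (log2 fold change -0.51, adjusted p = 0.0213).

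The number of integrin and laminin genes called between the ligated groups depended on single libraries. Of the 2 genes higher with SNL plus UNC0638 against SNL, Itgb6 and Lama1, both were called in every alternative setting in which they were tested. Without SNL plus UNC0638 replicate 1 there were 5 higher, Itga4 (log2 fold change 0.56, adjusted p = 0.0381), Itga8 and Itgal (log2 fold change 1.26, adjusted p = 0.0281) being added, and 3 lower. The share of all genes called was 21.1% in that setting, against 27.8% with every library. Without Sham replicate 3 there were 5 higher as well, Itga11 (log2 fold change 1.25, adjusted p = 0.0394), Itgal (log2 fold change 0.92, adjusted p = 0.0140) and Itgam (log2 fold change 0.74, adjusted p = 0.0427) being added. There 37% of all genes were called. Of the 5 genes lower, Itga6 and Itgb1 were called in all 21 alternative settings. With SNL plus UNC0638 replicate 1, SNL replicate 3 and Sham replicate 3 left out together, 9 were higher and 5 lower, and 44% of all genes were called. There were 2 or 3 lower genes without any 1 of SNL replicates 1, 2 or 4 or of the SNL plus UNC0638 libraries. In those settings 17.2 to 22.1% of all genes were called.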

How the data were processed

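RNA of rat dorsal root ganglia was sequenced in 11 libraries. Per the labels' protocols, RNA was extracted with Trizol or RNeasy, without saying which sample had which, and libraries were made with a stranded total RNA kit after removal of ribosomal RNA. Per the submitters' processing notes, TopHat2 2.0.9, Cuffdiff 2.1.1 and build rn4 were used. Neither labels nor notes state the gene annotation, the strand setting or how reads matching several genes were treated. The values the authors deposited are a signal per gene: counts scaled by 1 factor per library. Of the values under 30 steps, 98.8 to 99.5% were whole multiples of the library's step within 0.02 steps, the worth of 1 read, and dividing a library's total by the step gave its estimated reads. Values are not divided by gene length, so levels are not compared between genes.

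Groups came from the labels. Genes reaching 10 in 3 or more libraries were fitted on log2(value + 1) with limma 3.58.1 in R 4.3.3 (moderated test with a trend in the variance and robust estimation, 1 mean per group over all 11 libraries), adjusted by Benjamini-Hochberg over 12087 genes and called under 0.05, two-sided. The code was tested on simulated data. A count model, planned for raw counts, was not used, since the values are scaled. Alternatives changed the scaling, the filter, the pseudocount, the threshold, the samples fitted, a replicate block, the model (limma-voom with quality weights on estimated reads) and single libraries.

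Per functional list and comparison, the 3 called genes with the smallest p were to be given in every library, and of the partner lists up to 3 were named. Members, lists and tests were chosen with earlier results of these data known. Further genes of these families, such as Itgav, Itgax, Lama2 and Lamb1, were not analysed here. Counts include 1 tested gene whose own values are not reported here.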

Additional observations from a re-analysis of the deposited data

Results flagged for a closer look

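In 6 of the 52 groups of 4 libraries examined over 26 tested genes, 1 library stood apart by Dixon's criterion at its 95% limit. Chance gives this in about 1 group in 20 where groups are independent and values normally distributed. Here the groups share libraries and the scaled counts were not put on a log scale, so 6 of 52 cannot be set against that rate. Sham replicate 3 stood apart for Itga11, at 157 against 45.9 to 47.7 in the other Sham libraries. It did so for Itgal, at 104 against 39.0 to 43.2, and for Itgam, at 132 against 45.4 to 51.5. SNL replicate 3 stood apart for Itga11, at 42.8 against 12.0 to 16.0 in the other SNL libraries, and for Itgb6, at 32.3 against 6.0 to 9.41. SNL replicate 4 stood apart for Itgb3bp, at 84.8 against 57.1 to 59.3. Groups of 3 libraries were not examined in this way.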

How the results depend on the processing

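Of 49 calls of single genes, 42 were made under every alternative that kept the threshold of 0.05 and tested the gene, and 38 of them also at an adjusted p under 0.01. No fold change of a called gene turned its direction. With SNL against Sham, 1 gene instead of 3 was lower at an adjusted p under 0.01, where 31.3% of all genes were called. Leaving out single libraries gave 19 to 20 higher and 3 to 4 lower there, and 14 to 17 higher and 2 to 4 lower with SNL plus UNC0638 against Sham. The shares of all genes called were then 39.8 to 53.9% and 38.7 to 57.6%. With SNL plus UNC0638 against SNL, the 2 higher genes became 1 with a minimum of 50, 4 without Sham replicate 3 and SNL replicate 3, 9 without those and SNL plus UNC0638 replicate 1, 9 with limma-voom and 2 to 5 without single libraries. The shares of all genes called, in the same order, were 28.4%, 44.2%, 44%, 40% and 17.2 to 37%, against 27.8% in the main fit. The 5 lower genes became 2 with the replicate block, 2 at an adjusted p under 0.01 and 2 to 5 without single libraries. Of all genes, 17.6% were called with the replicate block and 10.8% at an adjusted p under 0.01. The cause of these changes was not tested. Limma-voom moved the median log2 fold change of all genes to 0.13 with SNL plus UNC0638 against SNL and to 0.19 with SNL plus UNC0638 against Sham. Replicate numbers did not pair the samples: correlations of same-numbered libraries ran from -0.446 to 0.431, and 0 of 3, 0 of 3 and 1 of 4 libraries correlated best with their own number. A count model (edgeR) was not run on the scaled values. The depth of 6127881 to 24367805 estimated reads limits Itgad, Lamb3, Itga10 and Itgb1bp2, which had few reads in several libraries. It also limits Itgb6 in SNL, where replicates 1, 2 and 4 had 9.41, 6.0 and 7.30.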
